A study of Danio rerio with 6 samples.

Results

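The cytosolic ribosomal protein genes were taken as the genes whose symbol starts with rpl, rps or rplp followed by a digit, leaving out the S6 kinases (rps6k). The rule found 78 genes, 46 of the large and 32 of the small subunit, among the 10068 genes that the deposited peak lists name. The study used ChIP-seq, in which an antibody pulls down chromatin and its DNA is sequenced, on heart tissue of zebrafish. It mapped 2 marks on lysine 9 of histone H3: acetylation (H3K9ac), found at active promoters, and trimethylation (H3K9me3), found in silent chromatin. Hearts came from fish 1 to 1.5 years old and were uncut, or were collected 6 or 9 days after the tip of the ventricle was cut off (days post amputation, dpa). There was 1 library for each mark and time, 6 in all. Differences between times thus had no replicate check, and each one compares libraries rather than conditions. The labels give no strain, genotype or number of hearts pooled per library, and they name whole heart tissue without sorting of cells. Most of the cardiac genes checked carried the active mark in all 3 H3K9ac libraries, for example myl7, a cardiac myosin light chain gene, with 89, 61 and 67 tags in the uncut, 6 dpa and 9 dpa libraries, and the cardiac transcription factor gene tbx20 with 189, 68 and 170. The cardiac troponin T gene tnnt2a, with 67 and 64 tags in the uncut and 9 dpa libraries, had no H3K9ac promoter peak at 6 dpa.

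Cytosolic ribosomes translate nearly all cellular mRNA. The small subunit holds the mRNA and the decoding centre, and the large subunit holds the peptidyl transferase centre, the exit tunnel and the P stalk that recruits elongation factors. Ribosomal protein genes are short, active in nearly every cell type, and scattered over the genome although their products are needed in near equal amounts. In vertebrates their transcription and that of ribosomal RNA rise with cell growth, as in heart muscle that enlarges.

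The lists give, for each peak, its position on build danRer10 and the number of reads (tags) inside it, which the authors did not scale between libraries. A gene was counted as marked if any peak of the library came within 2 kb of its transcription start site (TSS) on either side. Tags and widths were summed over such promoter peaks. The H3K9ac lists held between 16264 and 17525 peaks, and the H3K9me3 lists between 4488 and 6216. The background read density recovered from the peak scores was 14.63, 11.25 and 15.01 reads per kb in the uncut, 6 dpa and 9 dpa H3K9ac libraries, and 4.10, 10.83 and 9.24 in the H3K9me3 libraries. All intervals below are 95% intervals of counting error alone. The 78 genes lay on all 25 chromosomes, with 7 each on chromosomes 3, 7 and 19 as the most on any.

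H3K9ac stood at nearly all ribosomal protein promoters in every library. It was found at 76 of 78 genes in the uncut library (97.4%, Wilson interval 91.1 to 99.3), 77 of 78 at 6 dpa (98.7%, 93.1 to 99.8) and 78 of 78 at 9 dpa (100%, 95.3 to 100). Across all genes in the lists the same rule gave 82.8%, 86.9% and 85.4%. Near-full marking was not particular to these genes. It was found at 59, 61 and 62 of 63 mitochondrial ribosomal protein genes and at 39, 39 and 41 of 41 ribosome biogenesis genes. By subunit, 45, 45 and 46 of 46 large subunit genes and 31, 32 and 32 of 32 small subunit genes were marked in the uncut, 6 dpa and 9 dpa libraries. A gene enters the total only if some list annotates it, so every share is of listed genes.

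The exceptions were rps23 and rpl7l1. rps23, whose protein lines the decoding centre, had no peak in the uncut library and a narrow one over its TSS (chromosome 11, position 42265902) with 43 tags at 6 dpa and 49 at 9 dpa. Its density, 45.7 and 47.3 tags per kb, put it at percentiles 15.3 and 8.21 of all marked genes in the 6 and 9 dpa libraries. rpl7l1, a paralog of rpl7 whose human counterpart works in ribosome assembly, had a peak in the 9 dpa library alone, with 82 tags and 63.7 tags per kb (TSS at position 36776343 of chromosome 20). A gene without a peak is one whose tags did not reach the lowest score in the list, not one measured at 0. Gain of a promoter peak was not rare among all genes: 5.96% had one at 6 dpa and none in the uncut library, against 1 of the 78 ribosomal protein genes, and 4.64% had one at 9 dpa and none in the uncut library, against 2 of the 78. Only rps23 and rpl7l1 lacked a peak in the uncut library, so at most 2 of the 78 could gain one, and the shares of gain are not comparable. Promoter peaks were lost at 1.88% of all genes at 6 dpa and at 2.06% at 9 dpa, each relative to the uncut library, and at 0 of the 78.

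Asking for a peak over the TSS itself brought up 3 further genes that the wider window hides, rpl21, rps6 and rpl35. Under this stricter rule 75, 75 and 77 of the 78 genes were marked in the uncut, 6 dpa and 9 dpa libraries, against 78.5%, 82.4% and 81.1% of all genes. At rpl21, a large subunit gene on the plus strand of chromosome 24 (TSS at 21476526), the uncut library had a peak of 142 tags from 492 bp before to 1214 bp after the TSS, and the 9 dpa library had one of 130 tags at almost the same place. The 6 dpa library had no peak there, and the tags counted for rpl21 at 6 dpa came from a separate peak that ends 890 bp upstream and also lies in the promoter window of the neighbouring gene usp12a. That upstream peak held 141, 135 and 141 tags in the uncut, 6 dpa and 9 dpa libraries. The peaks over the TSS of rpl21 in the uncut and 9 dpa libraries lay in the window of usp12a too. Loss of a peak over the TSS relative to the uncut library was seen at 2.26% of all genes at 6 dpa and again at 9 dpa. Of the 78 genes, rpl21 had it at 6 dpa and rpl35 at 9 dpa. Gain of such a peak was seen at 6.08% of all genes at 6 dpa, against rps23 alone of the 78, and at 4.79% at 9 dpa, against rps23, rpl7l1 and rps6. These 3 were the only ones of the 78 without such a peak in the uncut library, so no other could gain one.

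Another was rps6, which encodes the small subunit protein that S6 kinase phosphorylates in mammals. It lies on the minus strand of chromosome 1 (TSS at 44348258). In the uncut and 6 dpa libraries its H3K9ac tags, 319 and 274, came from 1 broad peak that lay entirely upstream, ending 590 and 713 bp before the TSS. At 9 dpa this upstream peak remained with 262 tags, and a separate peak of 120 tags appeared over the TSS, from 204 bp before to 1316 bp after. At rpl35, an exit tunnel gene, the peak nearest the TSS began 122 and 77 bp before it in the uncut and 6 dpa libraries and 21 bp after it at 9 dpa, so its absence from the 9 dpa count is a shift of an edge: it held 85, 98 and 99 tags.

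**Figure D1:**
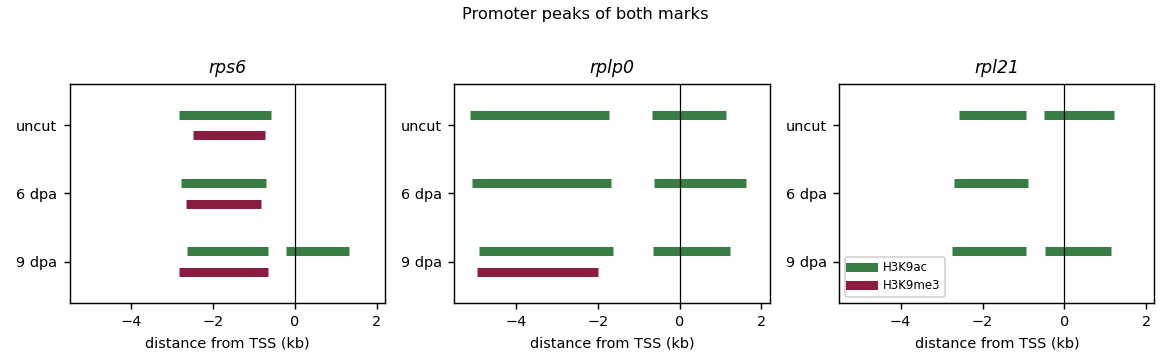
Positions of the promoter peaks of both marks at rps6, rplp0 and rpl21 in the uncut, 6 dpa and 9 dpa libraries, with the distance from the TSS in kb along the gene on the horizontal axis and the TSS as a vertical line. H3K9ac (green) and H3K9me3 (dark red) overlapped upstream of rps6 at all 3 times, and the H3K9ac peak over the TSS of rpl21 was missing at 6 dpa alone.

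H3K9me3 was rare at these genes, at a share near that of all genes. Promoter peaks stood at 1, 2 and 2 of the 78 genes (1.28%, 2.56% and 2.56%) in the uncut, 6 dpa and 9 dpa libraries, and 1.97%, 4.6% and 1.83% of all genes had one. Those described here are rps6 and rplp0, and at each the mark overlapped H3K9ac. Upstream of rps6 the H3K9me3 peak held 123, 256 and 269 tags in the uncut, 6 dpa and 9 dpa libraries, which was 17.0, 13.0 and 13.4 times the background density of each library. In the uncut library it spanned chr1:44348989-44350753 (danRer10), 731 to 2495 bp upstream of the TSS. H3K9ac peaks covered 100%, 100% and 91.1% of it in the uncut, 6 dpa and 9 dpa libraries. A promoter peak of H3K9me3 at all times was found at 1.1% of all genes, and rps6 was the 1 of the 78. In a mix of cells the lists cannot tell both marks on the same chromosomes from each mark in different cells.

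The H3K9me3 peak near rplp0 was weaker relative to background. rplp0, the base of the P stalk, had a peak of 126 tags at 9 dpa alone (chr5:1700161-1703119, 4.61 times background), whose near end lay 2000 bp upstream, the edge of the window. H3K9ac covered 98.1% of it, in a peak that is also in the window of the neighbouring gene LOC796505. The median distance to the nearest H3K9me3 peak was 173, 102 and 184 kb for the 78 genes and 149, 92.2 and 145 kb for all genes in the uncut, 6 dpa and 9 dpa libraries. Both sets of genes lay nearest to one at 6 dpa, whose list is the longest.

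Where marked, ribosomal protein promoters carried more H3K9ac than the typical gene, within a narrow band. Median promoter tags were 151, 155 and 164 in the uncut, 6 dpa and 9 dpa libraries, against 124, 127 and 141 for all genes with a peak. Median promoter peak width was 1802.5, 1811 and 1824.5 bp, against 1679, 1689 and 1742 bp. Median density was 82.1, 83.3 and 88.5 tags per kb, against 71.4, 73.0 and 78.3. By density 60 of 76, 54 of 77 and 54 of 78 marked genes were above the median of all genes, and their median percentile was 71.2, 64.4 and 66.3. The coefficient of variation of density over the ribosomal protein genes was 18.2%, 21.6% and 18.2%, against 35.5%, 39.4% and 34.1% over all genes with a peak. These genes therefore sat above the middle of the distribution but not at its top.

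**Figure D2:**
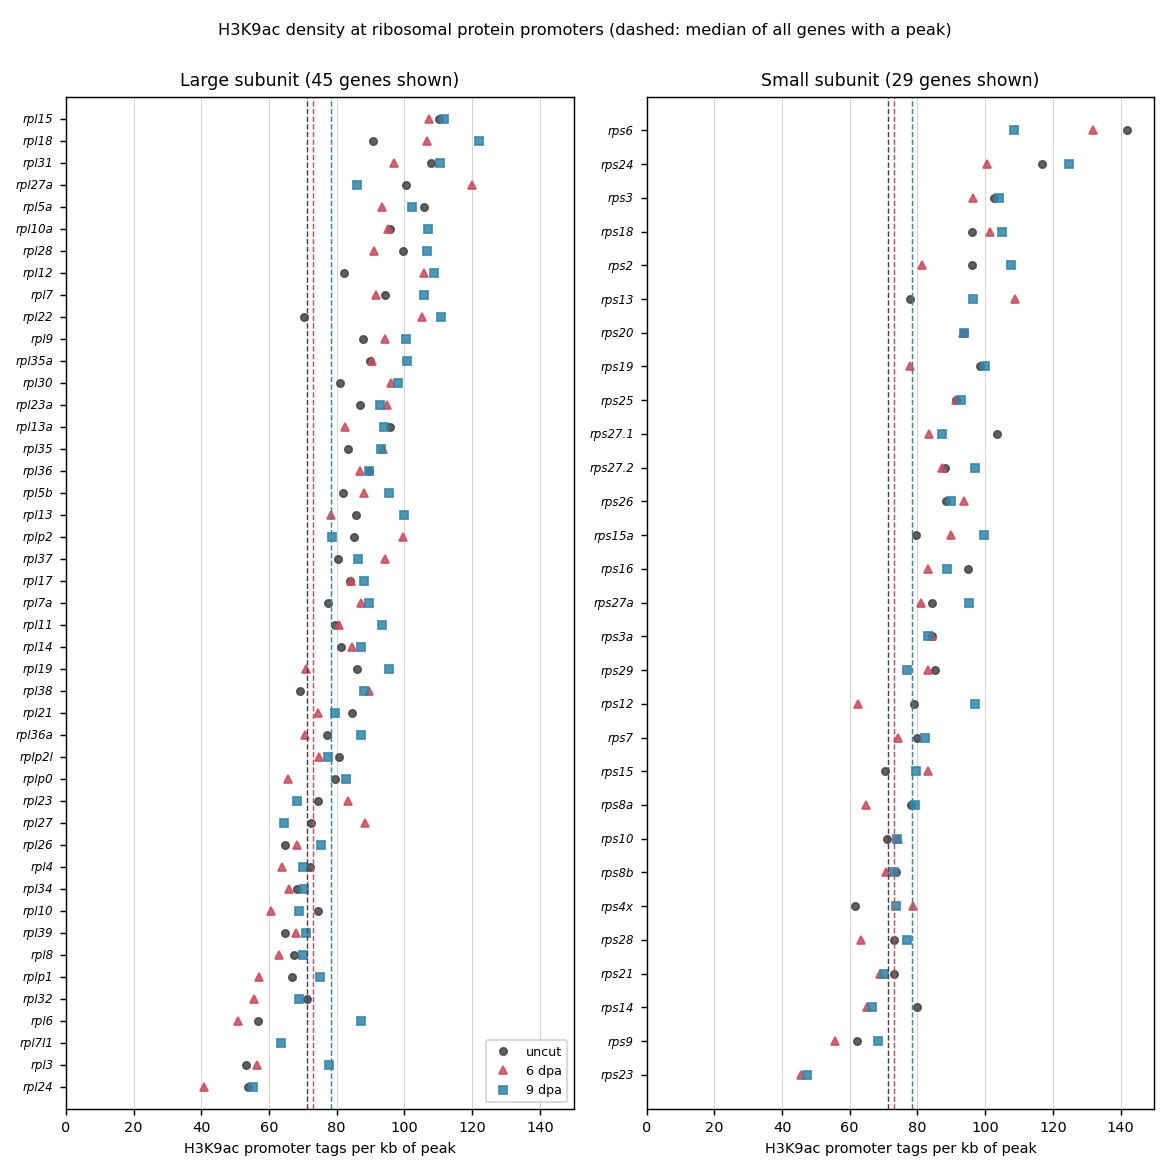
H3K9ac promoter tags per kb of peak for 45 large and 29 small subunit genes, ordered by their mean, in the uncut (circles), 6 dpa (triangles) and 9 dpa (squares) libraries; dashed lines mark the median of all genes with a peak in each library. Most points lie right of the lines, and rps6 is the highest small subunit gene while rpl24 is the lowest large subunit gene measured at all times.

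Large subunit genes had a median of 81.4, 86.8 and 88.1 tags per kb in the uncut, 6 dpa and 9 dpa libraries, and small subunit genes 84.3, 83.2 and 89.0. The large subunit was lower in the uncut and 9 dpa libraries and higher at 6 dpa, a difference that was not tested. Median tags were higher for the large subunit in every library, with 152, 157 and 165.5 tags against 147, 146.5 and 154, beside wider peaks of 1826, 1828 and 1855.5 bp against 1688, 1793.5 and 1735.5 bp.

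The highest mean densities over the 3 libraries were those of rps6 (128 tags per kb, from the upstream peak alone in the uncut and 6 dpa libraries and from both peaks at 9 dpa), rps24 (114), rpl15 (110), rpl18 (106) and rpl31 (105). rps24 had 117, 101 and 125 tags per kb in the uncut, 6 dpa and 9 dpa libraries; its human counterpart is mutated in Diamond-Blackfan anaemia. rpl31, near the exit of the tunnel, had 108, 96.9 and 111. Among the lowest means were those of rpl24 (50.01), rps9 (62.1), rpl3 (62.5) and rpl6 (64.9). rpl24, part of a bridge between the subunits, had 53.9, 40.8 and 55.3 tags per kb. Every library placed rpl24 below the median of all genes.

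The peaks at these short genes covered more of the gene body than usual. Their summits lay more often over 300 bp downstream of the TSS. They lay less often within 150 bp of it, most clearly in the uncut and 6 dpa libraries. The median gene length in danRer10 transcripts was 4999.5 bp for the 76 genes marked in the uncut library and 13612 bp for all marked genes, and the main H3K9ac peak covered a median of 21.6% of the gene body against 6.57%. The summit of that peak lay more than 300 bp downstream of the TSS at 28 of 76 genes (36.8%, Wilson interval 26.9 to 48.1), against 18.2% of all marked genes, and within 150 bp of it at 7 of 76 (9.21%, 4.53 to 17.8), against 24.1%. Over all 3 libraries, summits of the main peak over 150 bp upstream were also more frequent, with 23.7%, 28.6% and 26.9% in the uncut, 6 dpa and 9 dpa libraries. Their Wilson intervals were 15.5 to 34.4, 19.7 to 39.5 and 18.3 to 37.7, against 18.0%, 17.7% and 17.8% of all marked genes. Summits at any distance downstream were fewer, with 73.7%, 68.8% and 69.2%, against 78.6%, 79.0% and 79.2%, and the median summit lay 198.5, 169 and 202.5 bp downstream, against 171, 168 and 173 bp. At 6 dpa the shares beyond 300 bp downstream were 29.9% and 15.9%, and at 9 dpa 35.9% and 19.0%. Among ribosomal protein genes sharing their peak with no other gene, main summits over 150 bp upstream were not more frequent than in all marked genes. They made up 16.1%, 15.8% and 13.8% in the uncut, 6 dpa and 9 dpa libraries. The sets are unlike, because all marked genes include those that share a peak, 21.2% in the uncut library. Of the ribosomal protein genes with an unshared peak, 25 of 56 in the uncut library had a summit beyond 300 bp downstream. Large and small subunit genes had this at 35.6% and 38.7% in the uncut library.

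**Figure D3:**
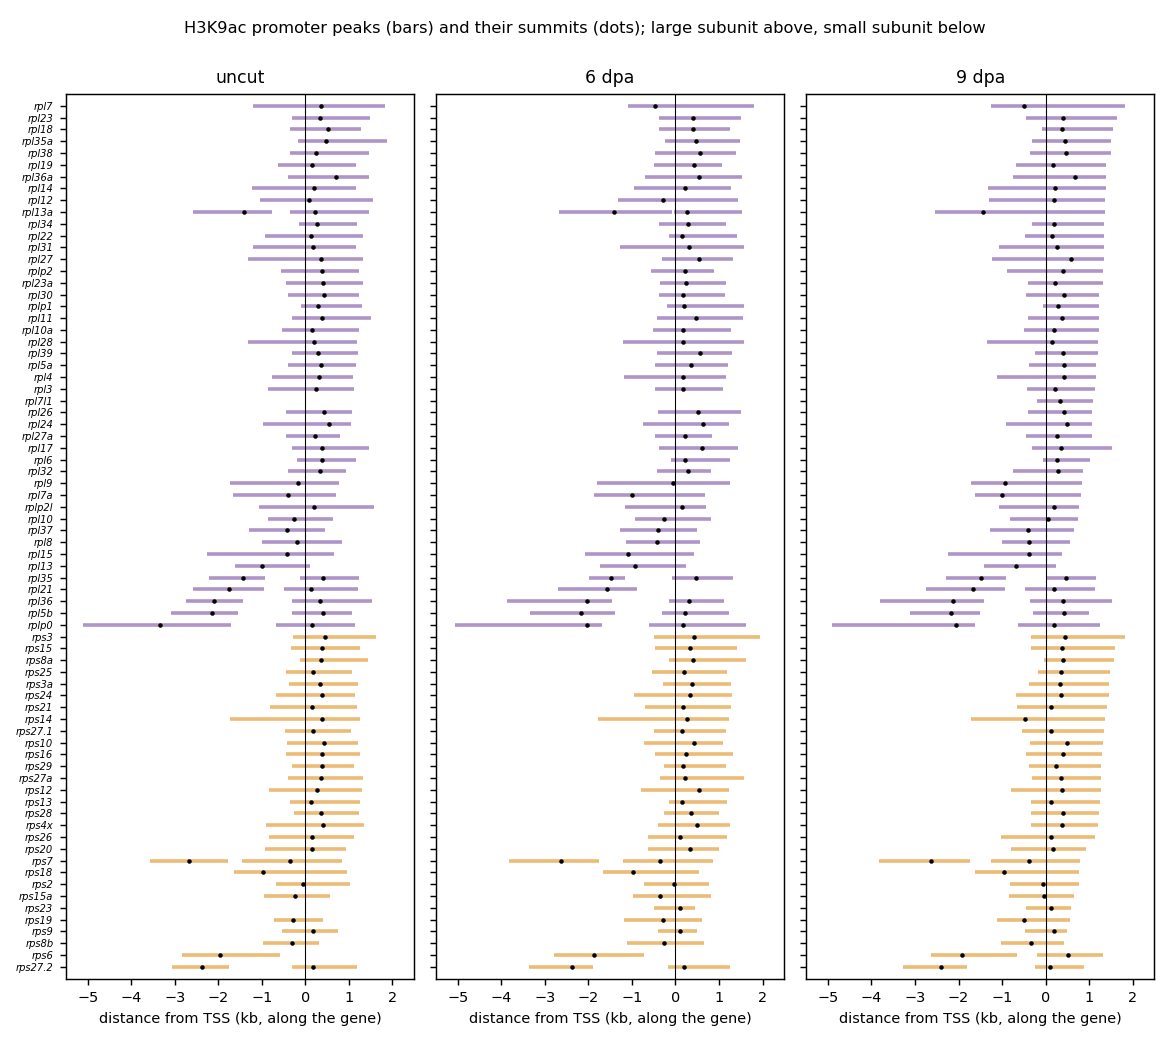
H3K9ac promoter peaks of 74 of the genes in the 3 libraries, drawn as bars along the distance from the TSS in kb, with a dot at each summit, large subunit (purple) above small subunit (orange). Most genes had 1 peak across the TSS with its summit downstream, and a few had a separate upstream peak in the same window.

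A main peak or a further one stood well upstream at several genes. The main summit was over 1 kb from the TSS in all 3 libraries at rpl35, rpl36, rpl5b, rplp0 and rps6, among others. Several upstream peaks also lay in the promoter window of a named neighbour: lmnb2 at rpl36, rnaseh1 at rps7, atpif1b at rpl13a, usp12a at rpl21, rab13 at rps27.2 and LOC796505 at rplp0. Where present, the peaks over the TSS of these genes lay in the same neighbour's window, except that of rps27.2 at 6 dpa. rpl5b had an upstream peak shared with no listed gene, with 126, 185 and 167 tags in the uncut, 6 dpa and 9 dpa libraries, beside 114, 123 and 112 tags over its TSS. In the uncut library 20 of 76 genes (26.3%) shared a promoter peak with another listed gene, against 21.2% of all marked genes, and none with another ribosomal protein gene. Among them, in all 3 libraries, were rpl15 (with nkiras1), rpl19 (cacnb1), rpl24 (cep97) and rpl31 (cnot11), each with a single peak.

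For changes between times, the log2 ratio of promoter tags was taken relative to the median gene, which is the median log2 ratio over the 8009 genes marked by H3K9ac in all 3 libraries. It was 0.11 for 6 dpa against uncut, 0.22 for 9 dpa against uncut and 0.10 for 9 dpa against 6 dpa. Of the 78 genes, 76 had a peak at all times. A gene was called higher or lower past a log2 change of 0.32 in either direction, the fold threshold. In bulk tissue a change per cell and a change in the mix of cells cannot be told apart. All changes below depend on this centring: scaled to background density instead, every log2 value is higher by 0.49 for 6 dpa against uncut and by 0.18 for 9 dpa against uncut, and lower by 0.31 for 9 dpa against 6 dpa.

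At 6 dpa few ribosomal protein genes had gained H3K9ac relative to the median gene. Of 76 genes, 2 were higher than in the uncut library (2.63%), against 14.6% of all genes, and 16 were lower (21.1%), against 18.2%. The share of lower genes was thus near that of all genes, and the share of higher genes was below it. The median log2 change was -0.12, with 49 of 76 genes below 0. Summed over the 76 genes there were 13060 tags at 6 dpa and 13083 in the uncut library, a log2 change of -0.12 (-0.15 to -0.08) relative to the median gene. Large and small subunit genes had medians of -0.11 and -0.14, with 9 of 45 and 7 of 31 lower and 1 higher in each. Scaled to background, the median was 0.37, and 42 of 76 genes (55.3%) were higher and 1 lower, where 68.7% and 3.02% of all genes were. In raw counts, not centred on the median gene, every cardiac and endothelial gene checked had fewer tags or no promoter peak at 6 dpa. The ventricular myosin heavy chain gene vmhcl had 54 tags at 6 dpa and 146 in the uncut library, and the cardiac transcription factor gene nkx2.5 had 48 and 111. The endothelial gene kdrl had 63 and 107, and fli1a had no peak at 6 dpa and 128 tags in the uncut library. At 9 dpa vmhcl, nkx2.5 and kdrl had 126, 169 and 98 tags, and fli1a again had no peak. The share of all genes with fewer raw tags at 6 dpa is not given here. The part of these genes in the values of the ribosomal protein genes was not tested.

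The 2 higher genes at 6 dpa were rps15 and rpl12. rps15, whose protein reaches the decoding centre, had 157 tags at 6 dpa and 111 in the uncut library, a log2 change of 0.39 (0.03 to 0.75), and 153 tags at 9 dpa. rpl12, at the base of the P stalk, had 292 tags at 6 dpa and 215 in the uncut library, a log2 change of 0.33 (0.07 to 0.59), and 289 tags at 9 dpa. For both genes the 2 amputated libraries lay above the uncut one. Per kb their log2 changes at 6 dpa were 0.17 for rps15 and 0.29 for rpl12, both within the threshold. The rpl12 peak also lay in the promoter window of the neighbouring gene lrsam1. Among the next highest were rps15a (0.32), rpl26, rpl38, rps8b and rpl9, with log2 changes from 0.28 to 0.29 for the last 4, none past the threshold, which rps15a missed narrowly.

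The lowest value at 6 dpa was that of rpl21, with 135 tags against 283 in the uncut library and a log2 change of -1.18 (-1.49 to -0.88), which came from the missing peak over its TSS: the peak with the most tags alone gave -0.19. rps9, near the mRNA entry channel, had 50 tags at 6 dpa and 80 in the uncut library (-0.79, -1.33 to -0.26). rplp2l, a paralog of the P stalk gene rplp2, had 140 tags and 213 tags (-0.72, -1.04 to -0.41). Its peak was narrower at 6 dpa, 1874 bp against 2637 bp, and per kb its log2 change was -0.19. rpl19, a subunit bridge protein gene, had 110 tags and 154 tags (-0.60, -0.97 to -0.24), in a peak that also lay in the promoter window of cacnb1.

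A second group of lower genes was mixed in role. rpl32 had 70 tags at 6 dpa and 96 in the uncut library (-0.57), rps28, at the mRNA exit channel, 81 and 110 (-0.56), rps12 126 and 169 (-0.54), and rps2, at the mRNA entry channel, 121 and 162 (-0.54). The remaining lower genes were rpl27, rpl24, rps14, rpl15, rpl3, rpl35a, rps6 and rps20, with log2 changes from -0.53 to -0.33. The counting interval lay wholly below 0 for 16 genes of the 76 (21.1%) and wholly above 0 for 3 (3.95%), where all genes gave 14.7% and 13.3%. Per kb of peak 2 genes were higher (all genes 10.9%), neither of them rps15 or rpl12, and 10 lower (14.4%). Past 1.5-fold, 0 were higher (all genes 3.46%) and 4 lower (7.14%), namely rpl21, rps9, rplp2l and rpl19.

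**Figure D4:**
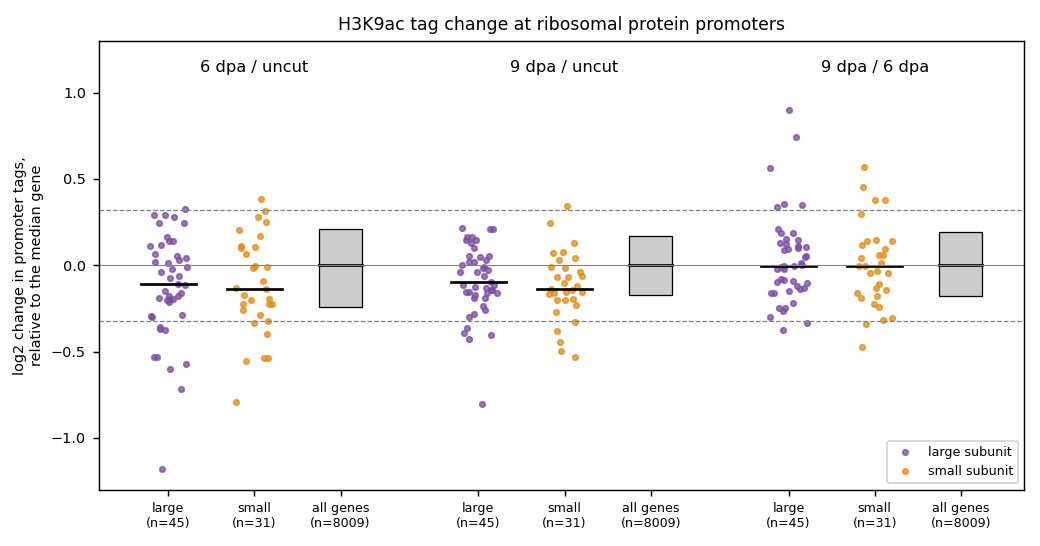
Log2 change in H3K9ac promoter tags relative to the median gene for each large (purple) and small (orange) subunit gene in 3 comparisons, with medians as black bars, beside the quartile box of all 8009 genes; dashed lines mark the fold threshold. At 6 dpa against uncut the points reach down to -1.18 and up to 0.39.

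At 9 dpa the lean to the low side was of the same size in tags and smaller per kb, with fewer genes past the fold. Relative to the uncut library, which both comparisons share, 1 of 76 genes was higher (1.32%), against 11.6% of all genes, and 10 were lower (13.2%), against 12.2%. The median log2 change was -0.11 in tags, with 54 of 76 genes below 0. In tags per kb the median was -0.05, beside -0.10 at 6 dpa against uncut. Per kb, 3 genes were higher (all genes 5.76%) and 4 lower (6.58%). Past 1.5-fold, 0 were higher (all genes 3.08%) and 1, rplp2l, lower (2.66%). Large and small subunit genes had medians of -0.10 and -0.14. Scaled to background, the median was 0.07, with 9 genes higher and 2 lower, where 28.4% and 4.31% of all genes were. The ribosomal protein genes held 1.09% of the tags of all genes with a peak at all times in the uncut library, 1.00% at 6 dpa and 1.01% at 9 dpa.

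rplp2l was the lowest gene at 9 dpa, with 142 tags against 213 in the uncut library (-0.80, -1.12 to -0.49) and both amputated libraries below the uncut one. Its peak was again narrower, 1834 bp against 2637 bp, and per kb the log2 change was -0.21. rps4x followed with 112 and 139 tags (-0.53), then rps9 with 66 and 80 (-0.50), rps14 with 204 and 239 (-0.45) and rpl27 with 165 and 191 (-0.43). rpl8 (-0.39), rpl15 (-0.36) and rps20 (-0.33) were also lower. The 6 genes lower at both times were rplp2l, rps9, rps14, rpl27, rpl15 and rps20, in comparisons that share the uncut library. Of all genes, 18.2% were lower at 6 dpa and 12.2% at 9 dpa. The share of all genes lower at both times was not computed, so the 6 genes have no reference. Per kb, rps14 alone of the 6 genes was past the threshold, with -0.37 and -0.41 at 6 and 9 dpa. The per kb values were -0.19 and -0.21 for rplp2l, -0.23 and -0.005 for rps9, and 0.22 and -0.31 for rpl27. They were -0.11 and -0.13 for rpl15, and -0.08 and -0.14 for rps20. rps14, deleted in the 5q- syndrome of humans, had 239, 196 and 204 tags in the uncut, 6 dpa and 9 dpa libraries.

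The 1 higher gene at 9 dpa was rps19, the gene most often mutated in Diamond-Blackfan anaemia in humans. It had 113, 141 and 167 tags in the uncut, 6 dpa and 9 dpa libraries, a log2 change of 0.35 (-0.01 to 0.70) at 9 dpa against uncut. Its peak also widened, with 1146, 1809 and 1672 bp, and per kb the log2 change was -0.13. The gene was thus called higher in tags, in a wider peak that was not denser.

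Between 9 and 6 dpa the ribosomal protein genes moved with the median gene. The median log2 change was -0.00, with 10 of 76 genes higher (13.2%), against 14.8% of all genes, and 4 lower (5.26%), against 10.4%. Per kb, 6 genes were higher (all genes 10.2%) and 5 lower (8.84%). Past 1.5-fold, 2 were higher (all genes 5.42%), rpl21 and rpl19, and 0 lower (1.81%). Scaled to background, 2 were higher (all genes 4.57%) and 36 lower (47.4%, all genes 48.5%). The higher genes were rpl21 (0.90), rpl19 (0.74), rps12 (0.57), rpl32 (0.56), rps28 (0.45), rps6 (0.38), rps2 (0.38), rpl3 (0.36), rpl6 (0.35) and rpl24 (0.34). All of them but rpl6 were among the genes lower at 6 dpa than in the uncut library. The 6 dpa library enters both comparisons, so a low count there makes a gene low in the first and high in this one. rpl19 shows the pattern in tags, with 154, 110 and 198 in the uncut, 6 dpa and 9 dpa libraries, and rps12 had 169, 126 and 201. The 0.90 of rpl21 came from its TSS peak and the 0.38 of rps6 from the added peak over its TSS: per kb rps6 was at -0.36. The lower genes included rpl27a (-0.37), rps8b (-0.34) and rpl26 (-0.33).

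Among the P stalk genes, rplp0 had 415, 368 and 428 tags in the uncut, 6 dpa and 9 dpa libraries, of which 168, 180 and 178 lay over its TSS. rplp1 had 94, 100 and 96, and rplp2 had 153, 145 and 173. Of these 3 genes and rplp2l, 1 gene, rplp2l, was lower past the fold threshold against uncut, at 6 and at 9 dpa, and 0 were higher, where 18.2% and 12.2% of all genes were lower and 14.6% and 11.6% higher. The genes of the 5S particle, which in mammals also binds the p53 regulator MDM2, stayed within the fold threshold: rpl11 had 145, 159 and 153 tags, rpl5a 166, 157 and 157, and rpl5b 240, 308 and 279 over both of its peaks.

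A further list held 8 large subunit genes: rpl3, rpl4, rpl10, rpl22, rpl23, rpl23a, rpl26 and rpl35. Of these, rpl3 alone passed the fold threshold against uncut, as lower at 6 dpa, where 18.2% of all genes were lower and 14.6% higher. At 9 dpa 0 of the 8 passed it, where 12.2% of all genes were lower and 11.6% higher. rpl3, next to the peptidyl transferase centre, had 105, 88 and 121 tags in the uncut, 6 dpa and 9 dpa libraries, and per kb its log2 change at 6 dpa was 0.01. rpl22 showed the opposite kind of difference, with 158, 164 and 201 tags in peaks of 2251, 1560 and 1815 bp. Its density was thus 70.2, 105 and 111 tags per kb, and the log2 change per kb was 0.51 at both times against uncut, while its tags stayed within the fold threshold of the median gene.

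Among the anaemia-linked genes, rps7 had 327, 309 and 342 tags, rps24 211, 226 and 268, rps26 172, 170 and 195, and rps10 116, 135 and 124 in the uncut, 6 dpa and 9 dpa libraries, all within the fold threshold against uncut. rpl35a was lower at 6 dpa, with 156 tags against 185 (-0.36), and per kb its log2 change was -0.06. Also in this list, rps14 was lower at both times and rps19 was higher at 9 dpa. Of all genes, 14.6% were higher and 18.2% lower at 6 dpa, and 11.6% higher and 12.2% lower at 9 dpa. rps27a, which encodes a fusion of ubiquitin and a small subunit protein, had 145, 156 and 150. rps3, at the mRNA entry channel, had 195, 237 and 225.

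Paralogs differed in tags. rplp2 had 153, 145 and 173 tags in the uncut, 6 dpa and 9 dpa libraries and rplp2l had 213, 140 and 142, so that rplp2l was higher than rplp2 in the uncut library and lower at 6 and 9 dpa. Their log2 changes at 6 dpa against uncut were -0.19 for rplp2 and -0.72 for rplp2l. rps27.1 had 156, 138 and 164 tags and rps27.2 had 248, 252 and 251 over 2 peaks, of which 134, 124 and 119 lay over its TSS. rps8a had 122, 115 and 129 tags and rps8b 95, 125 and 106, so that rps8b was lower than rps8a in the uncut and 9 dpa libraries and higher at 6 dpa. Except for rplp2l and rplp2 in the uncut library (213 against 153 tags), the order in both pairs rested on differences within counting error. At 6 dpa these were 140 against 145 tags for rplp2l and rplp2, and 125 against 115 for rps8b and rps8a. The changes of order between libraries are therefore not established. At 6 dpa against uncut rps8a had a log2 change of -0.20 and rps8b of 0.28. For rpl5a and rpl5b the values were -0.19 and 0.25, of which the peak over the TSS of rpl5b held 123 tags at 6 dpa and 114 in the uncut library, and its upstream peak 185 and 126. rpl7 had 286, 267 and 327 tags while rpl7l1 was marked at 9 dpa alone.

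Other genes of the translation machinery were set beside the same shares of all genes, 14.6% higher and 18.2% lower at 6 dpa and 11.6% higher and 12.2% lower at 9 dpa. Of 5 ribosomal protein genes outside the symbol rule, faua, faub, gnb2l1 and rpsa among them, 0 were higher and 2 lower at 6 dpa than in the uncut library, including faub (-0.40), and none passed the fold at 9 dpa. Of 13 elongation factor and related genes, 0 were higher and 3 lower at 6 dpa, and 2 higher and 5 lower at 9 dpa. Neither of the 2 higher genes was an elongation factor gene, and in so short a list 2 is near the share of all genes. eef2b, an elongation factor 2 gene, had 112, 91 and 85 tags in the uncut, 6 dpa and 9 dpa libraries, with log2 changes of -0.41 and -0.62 at 6 and 9 dpa.

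Ribosome biogenesis genes leaned further to the low side. Of 37 with a peak at all times, 1 was higher and 17 lower at 6 dpa (all genes 14.6% and 18.2%), with a median of -0.27, and 0 were higher and 11 lower at 9 dpa, with a median of -0.15. The log2 changes of the list ran from -0.86 to 0.43 at 6 dpa and from -0.86 to 0.22 at 9 dpa. The nucleolar genes npm1a and dkc1 were among its lowest at both times. npm1a had 133, 80 and 88 tags in the uncut, 6 dpa and 9 dpa libraries (-0.85 and -0.81 at 6 and 9 dpa), and dkc1, the pseudouridine synthase gene of box H/ACA particles, had 123, 80 and 79 (-0.73 and -0.86). The mitochondrial ribosomal protein genes, the most alike gene group, gave 3 higher and 21 lower of 59 at 6 dpa, with a median of -0.21, and 0 higher and 11 lower at 9 dpa, with a median of -0.11. None of these differences between lists was tested.

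**Figure D5:**
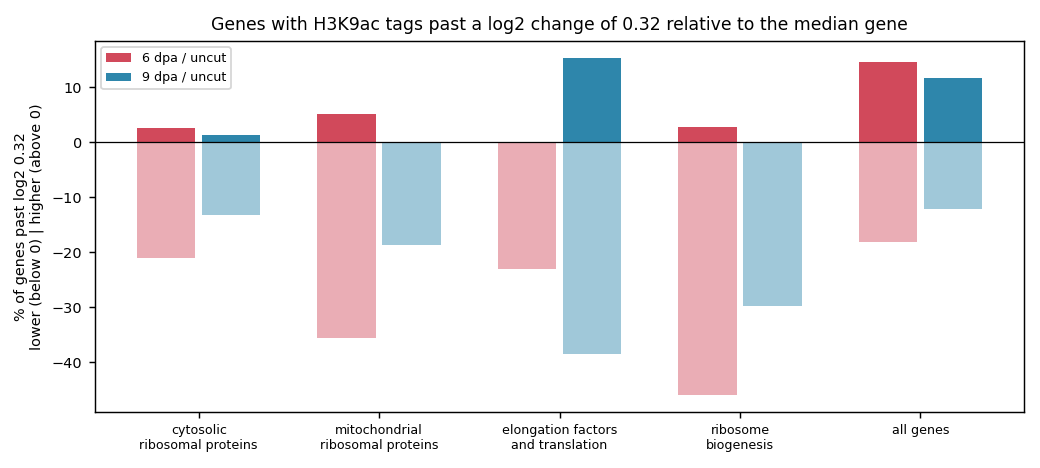
Percent of genes past the fold threshold relative to the median gene, higher above 0 and lower below 0, at 6 dpa (red) and 9 dpa (blue) against uncut, for the cytosolic ribosomal protein genes, the mitochondrial ones, elongation factors, ribosome biogenesis genes and all genes. The cytosolic ribosomal protein genes had few higher genes, and their lower genes were 21.1% at 6 dpa beside 18.2% of all genes.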

How the data were processed

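For each library the authors deposited a list of peaks annotated with RefSeq transcripts. Per the submitters' processing notes, the build was danRer10 and the tools were Bowtie2 2.2.5, MACS 1.4.2 and DiffBind 1.16.3; their settings, the control library, read totals and the handling of reads that fit several places, such as paralogs, are not given in the sources used here. Every peak carries, per the file headers, a raw count of its tags (reads, not normalized), a score (10 times the negative log10 of its p) and a fold enrichment, which is the authors' ratio to background. Peaks were called per library, and the lowest score was 50.

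The members and lists were chosen with earlier results of these data known. Genes named are, by rule, those lacking H3K9ac or carrying H3K9me3 in some library, the 8 highest and 8 lowest changes per comparison, the 5 highest and 5 lowest mean densities, and role and paralog lists. Genes at which the TSS rule changed the count, rpl35 among them, were named after their values were seen. A library's background is the most frequent Poisson density implied by score and tags. Intervals of log2 changes are exact conditional binomial. The scripts were tested on simulated data. Python 3.11.15, numpy 2.4.6, pandas 2.3.3, scipy 1.17.1 and matplotlib 3.10.9 were used. No p was computed between times. All 78 gene IDs were found in the NCBI table of assembly GRCz12tu, from which no coordinate was taken; rpl22l1, rps27l and rpl29 are not members. Promoter sequence was not analysed here. Alternatives were other windows, scores, folds and scalings. Some genes that the rule names are not reported here by name, although they stay in all counts and medians.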

Additional observations from a re-analysis of the deposited data

How the results depend on the processing

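Medians and counts below are log2 changes, or genes past the fold, among the ribosomal protein genes. With background scaling the median turned positive at 6 dpa against uncut (0.37, with 42 higher and 1 lower) and at 9 dpa against uncut (0.069, with 9 higher and 2 lower), and at 9 against 6 dpa it was -0.31, with 2 higher and 36 lower. Per kb, 10 genes were lower at 6 dpa against uncut, 3 were higher and 4 lower at 9 dpa against uncut (median -0.050), and 6 were higher at 9 against 6 dpa. With the peak of most tags alone, 4 of 76 genes were higher at 6 dpa and 3 at 9 dpa against uncut. At a 1.5-fold call, higher and lower genes were 0 and 4 at 6 dpa against uncut, 0 and 1 at 9 dpa against uncut, and 2 and 0 at 9 against 6 dpa. Without genes that share a peak, 1 of 56 genes was higher at 6 dpa. The shares of all genes for the peak of most tags and for unshared peaks are not given here, so these counts have no reference. A peak over the TSS itself was a setting chosen after seeing the data. Of the 73 genes with one at all times, 2 were higher at 9 dpa against uncut (2.74%), against 11.4% of all genes. Of the 78 genes, H3K9me3 promoters were 2 in the uncut library and 4 at 6 dpa with a 5 kb window. They were 1 at 6 dpa with a score of at least 100 and 1 at 9 dpa with a 1 kb window. Over the TSS itself they were 0, 1 and 0 in the uncut, 6 dpa and 9 dpa libraries. The shares of all genes under these H3K9me3 settings are not given here.

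Single genes changed sign under background scaling at 6 dpa against uncut: rpl15 (0.12), rpl3 (0.12), rpl35a (0.13), rps14 (0.093), rps20 (0.17) and rps6 (0.16). Per kb the sign changed for rpl27 (0.22) and rpl3 (0.013) at 6 dpa, for rps4x (0.11) and rps19 (-0.13) at 9 dpa, and for rpl26 (0.063) and rps6 (-0.36) at 9 against 6 dpa. With the peak of most tags, rpl21 (-0.041) and rps6 (-0.17) changed sign at 9 against 6 dpa. The cause was not tested. Genes with 1 peak in every library, an alternative also chosen after seeing the data, kept every count within 1.5 times. No paired analysis was possible because each mark and time had 1 library. Peak lists hold no tags for genes below the lowest score, which limits what an absent peak shows.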
